A study of Homo sapiens with 6 samples.

Results

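YAP1 and WWTR1, the TEAD family of DNA-binding factors and target genes that they are known to activate were followed in RNA-seq of cells labelled A549, an epithelial cell line established from human lung adenocarcinoma tissue. The set was a fixed list of 10 gene symbols: the coactivators YAP1 and WWTR1, the factors TEAD1, TEAD2, TEAD3 and TEAD4, and the targets CCN1, CCN2, ANKRD1 and AMOTL2. Values were found for 8 of the 10, out of 16779 genes in the tables, and the targets CCN1 and CCN2 were not analysed here. All 8 passed the low-count filter. The design has 3 libraries described as wild-type A549 control and 3 described as A549 RN7SK knockout (RN7SK-KO). RN7SK encodes 7SK, a small nuclear RNA that holds the elongation kinase P-TEFb inactive. No drug, dose or time is given for either group. The sources used here do not say how the knockout was made, whether it is a single clone or whether libraries came from separate cultures, so p-values measure only the spread between these libraries.

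YAP1 and WWTR1 (whose protein is called TAZ) are related coactivators that do not bind DNA themselves and act through TEAD factors. The Hippo pathway restrains them: the MST kinases STK3 and STK4 with the scaffold SAV1 activate the LATS kinases with their MOB1 partners, and LATS phosphorylation keeps YAP and TAZ out of the nucleus. In epithelial cells the pathway is known for its response to cell density, cell shape and stiffness of the matrix. Its activity is set largely by phosphorylation and localisation of the proteins, which mRNA counts do not measure.

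The libraries differed in more than these genes. Total counts ran from 16018260 to 19357144. Control replicate 2 stood apart from the other controls, with a chi-square over degrees of freedom of 6.48 and 8.3 against them. This ratio was 2.96 between those and 1.74 to 2.03 between knockout libraries. Named genes whose call changed without control replicate 2 are given with that value. CDKN2A and CDKN2B, which A549 cells are known to lack, had 923 to 1005 and 216 to 241 counts in the libraries labelled control, against 0 to 2 and 0 to 1 in those labelled knockout. RN7SK itself was not analysed here, so the knockout label was not checked against it. Groups are named by their labels, and the part that a difference in cell origin has in the results below was not tested and cannot be told apart from the knockout. Of 12929 genes tested with edgeR's quasi-likelihood test, 10992 (85%) passed an adjusted p of 0.05. The share higher in the knockout libraries was 42% and the share lower was 43%. Of the epithelial markers, KRT8, KRT18, KRT7 and CDH1 were detected in all libraries and higher in the knockout group. EPCAM had 6 to 12 counts and KRT19 had 0 to 2 in all 6 libraries. Summed epithelial markers (6 genes) had 3287 to 3503 CPM (read counts scaled to a common library size) in control and 5948 to 6060 in knockout libraries. Of the alveolar markers, SFTPA1 and SFTPB had 0 counts in all 6 libraries and NKX2-1 had at most 1 count in a control library and 5 to 11 in a knockout library; the 5 alveolar markers, 1 of 1 tested higher, summed to 0.576 to 0.889 CPM in control and 1.73 to 2.1 CPM in knockout libraries. Summed endothelial markers (8 genes, 4 of 4 tested lower, TIE1 at 0 throughout) had 162 to 175 CPM in control and 3.93 to 4.86 CPM in knockout libraries. ESAM (107 to 112 CPM in control, 2.64 to 3.07 in knockout libraries) and ENG (51.9 to 58.7 and 0.161 to 0.359 CPM) made up most of these control sums. KDR, VWF and PECAM1, too low to be tested, went the other way. They had 0 to 4, 0 and 0 to 2 counts in control libraries, against 5 to 19, 1 to 4 and 2 to 3. Fibroblast markers (8 genes, 3 higher and 1 lower of 4 tested) summed to 73.4 to 77.5 against 116 to 124 CPM. Haematopoietic markers (7 genes, 2 of 2 tested higher, CD3E at 0 throughout) summed to 34.4 to 37.7 against 53.6 to 57.8 CPM. The part of these markers in the results was not tested. In such bulk samples, fewer cells of a type and less RNA per cell cannot be told apart.

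The promoter letters of 3 members show how unevenly the TEAD recognition core is spread over the set. TEAD factors are known to recognise the core GGAATG, read as CATTCC on the other strand. It was searched on both strands in RefSeq promoter windows (GRCh38.p14, from 250 bases before to 50 after the annotated start) of 6 members; TEAD1 and TEAD4 were not matched. ANKRD1 held 2 copies, at 220 and 128 bases before the start, and YAP1 held 1, at 162 bases before it. AMOTL2, WWTR1, TEAD2 and TEAD3 held 0. The WWTR1 window (chr3:149703224-149703523, minus strand) is at a start inside the gene span given below, so the outermost start was not searched. Over all 27305 windows of this length, 14% held at least 1 copy and 1.37% held 2 or more. Of the 13237 windows of genes that have values here, 11.3% held at least 1 copy. The shorter core GGAAT, which every GGAATG also contains, was in 4 of the 6 windows. It was in 36.5% of all windows and in 30.7% of those of genes that have values here. Shown are the 250 bases before the start on the gene's strand, with GGAATG in capitals for ANKRD1 (chr10:90921088-90921337, minus strand) and YAP1 (chr11:102110197-102110446, plus strand), and with the reverse complement of GGAAT in capitals for AMOTL2 (chr3:134375418-134375667, minus strand). A match of letters is a description and not a measured binding site.
ANKRD1: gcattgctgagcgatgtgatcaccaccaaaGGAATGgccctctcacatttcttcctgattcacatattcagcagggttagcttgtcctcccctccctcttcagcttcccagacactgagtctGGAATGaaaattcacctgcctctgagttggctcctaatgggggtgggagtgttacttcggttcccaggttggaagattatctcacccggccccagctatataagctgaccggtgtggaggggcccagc
YAP1: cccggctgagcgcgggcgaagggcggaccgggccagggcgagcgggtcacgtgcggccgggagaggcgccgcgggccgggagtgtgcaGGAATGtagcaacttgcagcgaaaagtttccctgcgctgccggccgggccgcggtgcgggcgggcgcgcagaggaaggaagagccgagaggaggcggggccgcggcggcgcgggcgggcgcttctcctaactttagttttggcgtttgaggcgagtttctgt
AMOTL2: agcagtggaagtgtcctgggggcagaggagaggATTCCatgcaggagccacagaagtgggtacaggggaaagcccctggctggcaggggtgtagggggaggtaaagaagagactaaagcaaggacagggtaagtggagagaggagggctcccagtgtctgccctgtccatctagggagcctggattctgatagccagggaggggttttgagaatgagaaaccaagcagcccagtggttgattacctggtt

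The coactivators moved in opposite directions. YAP1 (chromosome 11, 102110447 to 102233424, GRCh38) had 265, 258 and 253 CPM in control replicates 1 to 3 and 123, 122 and 121 CPM in knockout replicates 1 to 3. All 3 knockout libraries lay below all 3 controls. The fall was 2.12-fold, a log2 fold change of -1.08 ± 0.044 (fit ± SE, edgeR adjusted p = 1.4e-21). WWTR1 (chromosome 3, 149517235 to 149724788) had 189, 181 and 182 CPM in control and 269, 267 and 269 CPM in knockout libraries. Every knockout library was above every control, a 1.46-fold rise (log2 fold change 0.55 ± 0.0425, edgeR adjusted p = 9.34e-14). In GENCODE 29, exons of antisense genes share 628 bases with YAP1 and 795 with WWTR1, and with the strand setting of the counting not stated, reads of each pair cannot be told apart. Among all tested genes, 30.6% changed by more than YAP1 in either direction and 56.7% by more than WWTR1.

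The order within the coactivator pair was reversed between the groups. Levels of different genes are compared here in FPKM, in which reads are divided by gene length as well as by library size. YAP1 was at 40.5 ± 1.03 FPKM and WWTR1 at 30.5 ± 0.878 FPKM in control, and at 19.5 ± 0.143 and 46 ± 0.409 FPKM in knockout libraries (mean ± SD, n = 3). YAP1 made up 56.9%, 57.4% and 56.8% of the summed FPKM of the pair in the controls and 30%, 29.8% and 29.5% in the knockout libraries. Its FPKM ratio to WWTR1 went from 1.33 ± 0.0164 to 0.424 ± 0.00458 (exact two-sided permutation p = 0.1, the smallest that 3 against 3 libraries allow). The summed FPKM of the pair differed less, at 71 ± 1.86 in control and 65.6 ± 0.448 in knockout libraries, again with no overlap (exact permutation p = 0.1).

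**Figure D1:**
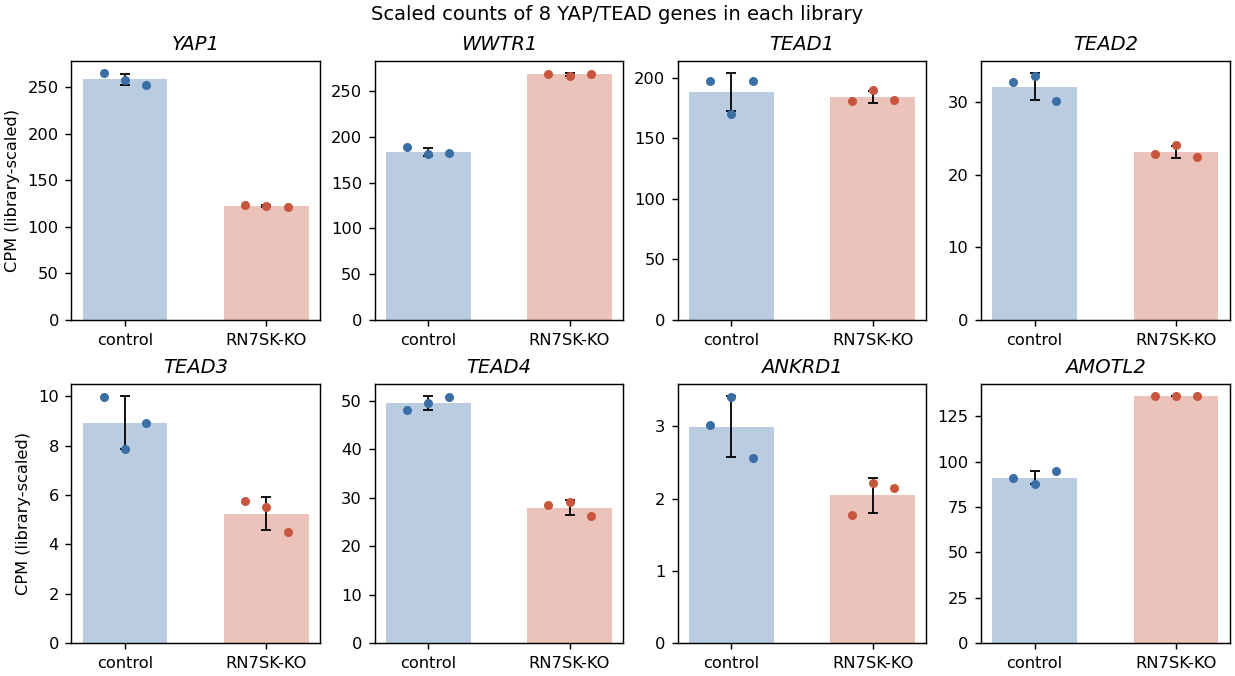
CPM, counts scaled to library size (y axis, from 0) for 8 genes in control (blue) and RN7SK-KO (red) libraries; points are libraries, bars are means and error bars are SD (n = 3). The groups of TEAD1 overlap, those of YAP1, TEAD2, TEAD3, TEAD4 and ANKRD1 are separated with the knockout lower, and those of WWTR1 and AMOTL2 are separated with the knockout higher.

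Of the 4 TEAD genes, which encode the DNA-binding partners, 3 fell and TEAD1 did not pass the test. That is 75% called, beside 85% of all tested genes. TEAD4 (chromosome 12, 2959397 to 3040676) had 48.2, 49.7 and 50.9 CPM in control and 28.6, 29.1 and 26.3 CPM in knockout libraries. The groups did not overlap, and the log2 fold change was -0.82 ± 0.0645 (edgeR adjusted p = 1.04e-13). The deposited FPKM of TEAD4 rest on a gene length of 2161 bases in the control tables and 1723 in the knockout tables. With these lengths as an offset its log2 fold change was -0.5 (edgeR adjusted p = 1.6e-08; 1.16e-33 to 0.000199 over all settings tried).

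TEAD3 (chromosome 6, 35473597 to 35497079), the scarcest of the family, had 9.99, 7.85 and 8.94 CPM in control and 5.75, 5.5 and 4.49 CPM in knockout libraries. It fell by 0.76 ± 0.137 on the log2 scale (edgeR adjusted p = 6.37e-06) with no overlap. TEAD2 (chromosome 19, 49340595 to 49362416) had 32.7, 33.6 and 30.1 CPM in control and 22.9, 24.1 and 22.4 CPM in knockout libraries. Its fall, also without overlap, was the smallest of the 3 (log2 fold change -0.47 ± 0.0725, edgeR adjusted p = 3.87e-07). TEAD2 exons share 319 bases with CD37 on the other strand, and CD37 had 0 or 1 count in each library.

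TEAD1 (chromosome 11, 12674421 to 12944737) had 197, 170 and 197 CPM in control and 181, 190 and 182 CPM in knockout libraries. The groups overlapped, and the log2 fold change was -0.027 ± 0.0502 (edgeR adjusted p = 0.621). Control replicate 2 was the lowest of the 6 libraries. Without it the log2 fold change was -0.098 and passed (edgeR adjusted p = 0.0145; 0.0145 to 1 over all settings), and the sign turned under upper-quartile scaling (0.061), on both FPKM scales and without control replicate 3.

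The make-up of the TEAD family differed as well, with a larger part held by TEAD1 in the knockout libraries. TEAD1 was 36.3%, 32.8% and 36.4% of the summed TEAD FPKM in the controls and 42.2%, 42.8% and 44.2% in the knockout libraries. TEAD4 was 38.8%, 41.8% and 40.9% in the controls and 36.4%, 35.8% and 34.9% in the knockout libraries. TEAD4 thus stood first in each control library and TEAD1 in each knockout library. TEAD3 went from 5.25% ± 0.52 to 3.85% ± 0.398 and TEAD2 from 19.1% ± 1.48 to 17.4% ± 0.177 (SD, n = 3). The groups of all 4 shares were separated (exact permutation p = 0.1 each, the smallest possible). With the control lengths used in both groups, TEAD1 gained 11.4 points instead of 7.91, TEAD4 had a difference of -9.72 points instead of -4.78, and the TEAD2 shares overlapped (exact permutation p = 0.7). Summed TEAD FPKM was 55.2 ± 1.5 in control and 45.1 ± 1.45 in knockout libraries. The FPKM ratio of coactivators to TEADs was 1.29 ± 0.0366 in control and 1.45 ± 0.0565 in knockout libraries (exact permutation p = 0.1 for both).

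**Figure D2:**
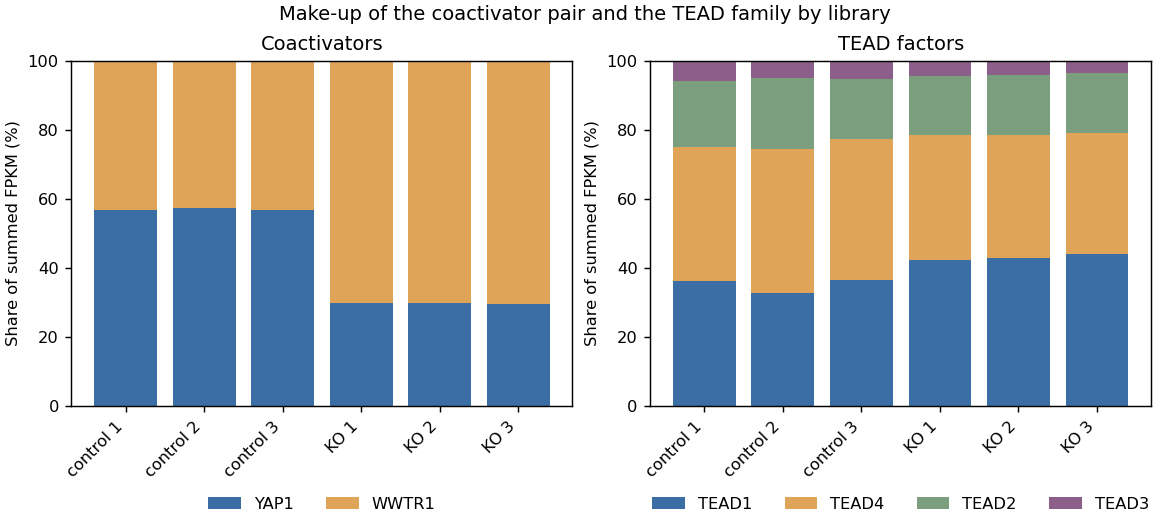
Share of summed FPKM in percent (y axis) held by each coactivator (left) and each TEAD gene (right) in the 6 libraries (x axis; KO is RN7SK-KO). YAP1 holds more than WWTR1 in the 3 controls and less in the 3 knockout libraries, and the TEAD1 share is larger in each knockout library than in each control.

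The 2 target genes with values went in different directions. AMOTL2 (chromosome 3, 134355345 to 134375417), an angiomotin that binds YAP and is itself induced by it, had 91.1, 87.8 and 94.8 CPM in control and 136, 136 and 136 CPM in knockout libraries. It rose 1.49-fold with no overlap (log2 fold change 0.58 ± 0.0482, edgeR adjusted p = 5.16e-13). AMOTL2 exons share 187 bases with the pseudogene RPL39P5 on the same strand in GENCODE 29, whose reads no strand setting could tell from those of AMOTL2. ANKRD1 (chromosome 10, 90912096 to 90921087), which encodes an ankyrin repeat cofactor known from heart and skeletal muscle, was near the lower end of detection, with 56, 65 and 49 counts in control and 33, 37 and 35 in knockout libraries. These are 3.02, 3.4 and 2.56 CPM against 1.77, 2.21 and 2.15 CPM, without overlap. ANKRD1 fell by 0.55 ± 0.215 on the log2 scale (edgeR adjusted p = 0.0178). This call was lost with DESeq2 (adjusted p = 0.0568), with recovered lengths as an edgeR offset (1974 bases in control, 1790 in knockout; adjusted p = 0.0722), without control replicate 2 (edgeR adjusted p = 0.0759), and without knockout replicate 1 (edgeR adjusted p = 0.0838). On log2(FPKM + 0.1) and log2(FPKM + 1) its change was -0.35 and -0.21 and passed in limma (adjusted p = 0.0266 and 0.02).

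In all, 2 of the 8 members rose, 5 fell and 1 did not pass. That is 87.5% called against 85% of all tested genes, so a call does not set the members apart. DESeq2 called 82.3% of its genes and 6 of the 8 members, edgeR with recovered lengths as offset 85.3% and 6, and edgeR's test against a 1.5-fold change 46.2% and 2. Groups were separated for 7 of the 8, against 85.6% of all tested genes. Their median log2 fold change was -0.51, beside -0.007 over all genes. Called changes of at least 2-fold were seen for 1 member, YAP1, and for 33.6% of all tested genes. In FPKM, the order in control libraries was YAP1, WWTR1, TEAD4, TEAD1, AMOTL2, TEAD2, TEAD3 and ANKRD1. In knockout libraries it was WWTR1, AMOTL2, YAP1, TEAD1, TEAD4, TEAD2, TEAD3 and ANKRD1. There YAP1 (19.4 to 19.7 FPKM) and TEAD1 (19 to 20 FPKM) overlapped, and no other neighbours in either order did.

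The VGLL cofactors of TEAD were followed beside the paralogs of the members, and the paralogs moved in both directions. VGLL3 and VGLL4, of a family of cofactors that compete with YAP and TAZ for TEAD, rose. VGLL3 went from 11.6, 10.4 and 10.1 CPM in control to 22.5, 24.1 and 22.9 CPM in knockout libraries (log2 fold change 1.11 ± 0.0896, edgeR adjusted p = 2.11e-13), and had 0.65 on log2(FPKM + 1). VGLL4 rose 1.46-fold from 48.3 ± 1.34 to 70.7 ± 1.3 CPM (n = 3). VGLL2 had 0 counts in 5 libraries and 1 in the other. Of the angiomotins, AMOT fell 10.2-fold, from 12.9, 12.4 and 13.4 CPM to 1.34, 1.14 and 1.29 CPM, which is -3.35 ± 0.161 as a fitted log2 fold change of counts and -1.16 on log2(FPKM + 1). AMOT had a mean of 1.58 FPKM in control and 0.157 in knockout libraries. Adding 1 to such low values shrinks a log2 fold change by construction, here and for other genes of low FPKM given on that scale. AMOTL1 had 51.5 ± 4.09 and 48 ± 1.45 CPM and did not pass, except without control replicate 2 (log2 fold change -0.17, edgeR adjusted p = 0.00697; 0.00697 to 1 over all settings). Of the muscle ankyrin repeat genes related to ANKRD1, ANKRD2 rose from 0.738 ± 0.201 to 1.94 ± 0.507 CPM (log2 fold change 1.38, or 0.62 on log2(FPKM + 1)). ANKRD23 had 3.89 ± 0.994 and 2.82 ± 0.453 CPM with overlapping groups. Its log2 fold change of -0.46 passed narrowly (edgeR adjusted p = 0.0357; 0.00258 to 0.796 over all settings) and was -0.26 without control replicate 1, where it did not pass.

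Genes of the Hippo pathway, which restrains YAP and TAZ, were more often lower than higher. Of 34 tested genes of the list, 8 rose, 22 fell and 4 did not pass, with a median log2 fold change of -0.39. The share called was 88.2%, again near the 85% of all genes. Over all tested genes 42% were higher and 43% lower, with a median of -0.007. With recovered lengths as offset, 11 of the list rose and 20 fell, with a median of -0.34 beside 0.057 over all genes. Without control replicate 2, 8 rose and 23 fell. CSNK1E did not pass the low-count filter. All of STK4, SAV1, LATS1, LATS2, MOB1A, MOB1B and NF2 fell in the 8-gene kinase core, and STK3 did not pass.

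Among the core kinases, STK4 fell 2.56-fold from 173, 163 and 162 CPM to 66.7, 63.8 and 63.5 CPM. Its paralog STK3 had 18.1 ± 1.46 and 19.9 ± 0.0588 CPM (log2 fold change 0.13, edgeR adjusted p = 0.137), though it passed under upper-quartile scaling (log2 fold change 0.22, edgeR adjusted p = 0.0178; 0.0178 to 1 over all settings). LATS2, a kinase that is also a YAP target, fell from 46.9, 39.6 and 45.6 to 19.8, 22 and 22.4 CPM, and LATS1 from 54.4 ± 2.22 to 29.6 ± 1.5 CPM. The groups were separated for STK3, STK4, LATS1 and LATS2, as they were for 85.6% of all tested genes. NF2, which encodes merlin, the membrane scaffold that recruits LATS, fell 4.13-fold from 217, 254 and 233 to 52.4, 61 and 57.3 CPM. The scaffold SAV1 fell by 0.32 ± 0.0633 on the log2 scale. The LATS partner MOB1B had a log2 fold change of -0.63, or -0.37 with the recovered lengths as offset (8937 bases in control, 7480 in knockout), -0.34 on log2(FPKM + 0.1) and -0.27 on log2(FPKM + 1). MOB1A, with overlapping groups, had -0.11 (edgeR adjusted p = 0.0314; 0.00273 to 1 over all settings). That call was lost in 11 of the alternatives, among them upper-quartile scaling (log2 fold change -0.028), log2(FPKM + 0.1) (-0.072), log2(FPKM + 1) (-0.07), DESeq2, and leaving out control replicate 1 or knockout replicate 1 or 2.

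Upstream of the kinases, FRMD6, a FERM-domain activator of the pathway, had the largest absolute log2 fold change of the 34 in counts. It fell 18-fold from 285, 267 and 281 to 14.8, 15.4 and 16 CPM (log2 fold change -4.17 ± 0.0582). Of the 3 WWC scaffolds, which bind LATS, WWC3 rose 7.06-fold from 11.3, 10.7 and 10.7 to 77.9, 76.2 and 77.4 CPM, whereas WWC2 fell from 89.3, 83.6 and 88.9 to 35.3, 33.7 and 31.9 CPM (log2 fold change -1.37 in counts and -0.83 on log2(FPKM + 1)). WWC1, the most abundant of them, had 226, 231 and 252 CPM in control and 224, 222 and 218 CPM in knockout libraries, a log2 fold change of -0.098 (edgeR adjusted p = 0.0436; 2.49e-09 to 1 over all settings). Its direction depends on the lengths, 7541 bases in control and 5412 in knockout tables: with them as offset the log2 fold change was 0.38 (edgeR adjusted p = 2.49e-09). Its call in counts was also lost with DESeq2 and upper-quartile scaling and without control replicate 3 or any 1 knockout replicate. Each of FRMD6, WWC3, STK4, NF2 and WWC2 had an edgeR adjusted p between 1.24e-34 and 7.92e-21.

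**Figure D3:**
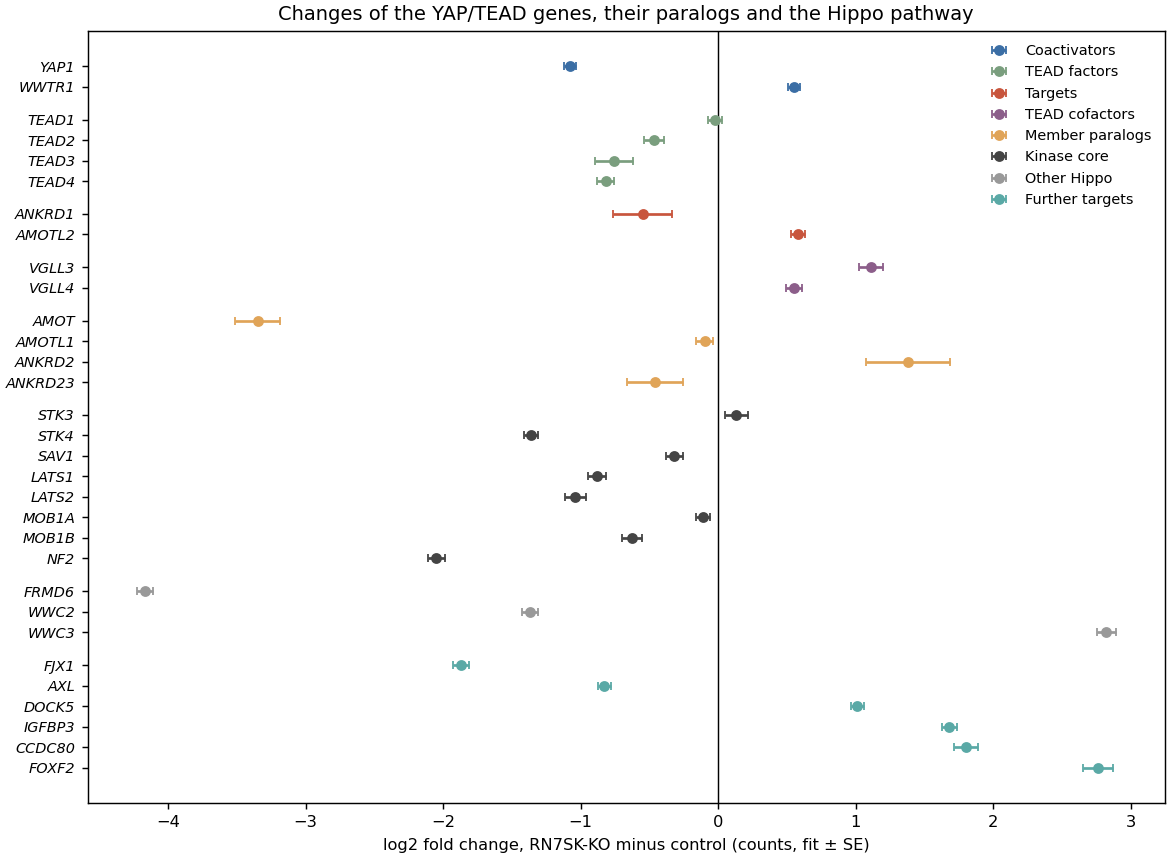
log2 fold change in counts, RN7SK-KO minus control (x axis, fit ± SE, 3 libraries a group), of named genes (y axis). Shown are the 8 members, VGLL3 and VGLL4, the tested paralogs of the members, and genes of the Hippo and further target lists. YAP1 and most of the kinase core lie left of 0, WWTR1, AMOTL2 and the VGLL genes to the right, and the further targets on both sides.

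Beyond AMOTL2 and ANKRD1, a list of 18 further YAP and TAZ targets was followed. All 18 were tested, of which 7 rose, 10 fell and 1, TGFB2, did not pass, with a median log2 fold change of -0.14. The share called was 94.4% against 85% of all genes. Without control replicate 2, 6 rose and 10 fell, and at an adjusted p of 0.01 in edgeR, 5 rose and 9 fell. LATS2 and PTPN14 stand in both lists. FJX1, a four-jointed homologue, fell from 123, 112 and 123 to 32.7, 32.4 and 32.8 CPM (log2 fold change -1.87 ± 0.0577). The receptor tyrosine kinase AXL fell from 167, 172 and 171 to 93.1, 98 and 95.6 CPM (log2 fold change -0.83 ± 0.0465). The groups did not overlap for FJX1 or AXL.

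Other targets went up. IGFBP3, a binding protein of insulin-like growth factors, rose 3.2-fold from 42.9, 44.1 and 41.4 to 141, 132 and 138 CPM. The transcription factor gene FOXF2 rose 6.77-fold from 4.21, 4.45 and 3.66 to 29.8, 24.9 and 28.7 CPM, and the guanine exchange factor gene DOCK5 rose 2.01-fold from 77.2 ± 3.35 to 155 ± 1.58 CPM. CCDC80, a secreted matrix protein gene, rose 3.47-fold in counts from 10.6 ± 1.24 to 36.7 ± 1.79 CPM. The FPKM of CCDC80 rest on 4712 bases in control tables and 12301 in knockout tables. With these lengths as offset its log2 fold change was 0.41 in place of 1.8 (edgeR adjusted p = 6.16e-05), and on log2(FPKM + 0.1) and log2(FPKM + 1) it was 0.43 and 0.32. The edgeR adjusted p of FJX1, IGFBP3, FOXF2, CCDC80, DOCK5 and AXL in counts lay between 4.92e-25 and 1.14e-17. The promoter core GGAATG was in 5 of 13 further target windows that were matched and in 4 of 27 of the Hippo list. LATS2 and PTPN14 are counted in both. It was in 14% of all windows and in 11.3% of those of genes that have values here. Some Hippo windows, such as those of RASSF1 and LATS1, are at a start inside the gene.

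**Figure D4:**
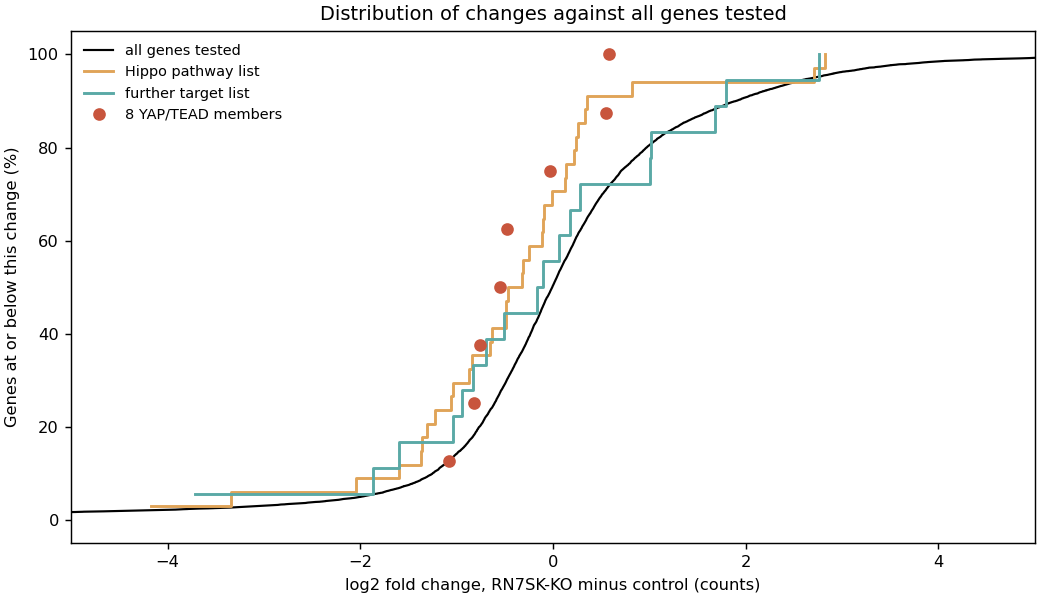
Cumulative percent of genes (y axis) at or below a log2 fold change in counts, RN7SK-KO minus control (x axis, shown from -5 to 5), for all 12929 tested genes (black), 34 Hippo genes (orange), 18 further targets (teal) and the 8 members (points). The members span -1.08 to 0.58, inside the range of all genes, and the Hippo curve crosses 50% at a lower change than the curve of all genes.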

How the data were processed

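Per the labels' protocols, total RNA of each sample was taken with TRIzol reagent, and libraries came from an mRNA kit. HISAT2 2.2.1.0, FastQC 0.11.5 and Trimmomatic 0.36 and the build GRCh38 are named in the submitters' processing notes. The read counter, annotation and strand setting of the 6 tables are not given in the sources consulted. The authors deposited whole-number read counts per gene symbol and FPKM for each library, and 751 of 16779 genes had 0 counts throughout. Gene lengths and totals behind the deposited FPKM were recovered by finding the library total that makes count over FPKM whole. Those totals were 1.636% to 1.803% above the sum of the listed genes. Lengths differed between the groups' tables: of 14582 genes with both, 32.3% agreed within 1%.

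Counts were tested in R 4.3.3 with edgeR 4.0.16 (filterByExpr, trimmed mean of M values with factors 0.9885 to 1.015, glmQLFit robust, glmQLFTest, two-sided, Benjamini-Hochberg over 12929 genes, threshold 0.05). The SE is the log2 fold change divided by the square root of F. CPM use these factors. Precision follows from 16018260 to 19357144 total counts in a library. Replicates differed by more than sampling noise (chi-square over degrees of freedom, 1.74 to 2.96 between pairs without control replicate 2, and 6.48 and 8.3 with it). The code was tested on simulated data in which only a small part of the genes changed. A change as broad as the one seen here was not simulated. Shares and ratios were compared with exact permutation tests. Alternatives were 3 other scalings, 2 other filters, DESeq2 1.42.0, limma 3.58.1 (voom, and trend on log2 FPKM), recovered lengths as offset, a replicate block, leaving out each library, and stricter thresholds. Members and lists were chosen with earlier results of these data known. Named were all members, VGLL cofactors and paralogs with values, the kinase core, and the 6 genes of smallest p of the Hippo and further target lists. Others, including the genes of the closing section, were named after their values were seen. Proteins were not analysed here. Python 3.11.15 made summaries and figures.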

Additional observations from a re-analysis of the deposited data

How the results depend on the processing

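Counts of calls and named genes were recomputed under 19 alternatives. The direction of YAP1, WWTR1, TEAD2, TEAD3, TEAD4, ANKRD1 and AMOTL2 held in all of them, with log2 fold changes of -1.11 to -1.0 for YAP1 and 0.53 to 0.63 for WWTR1. The adjusted p of 0.01 and the test against a fold of 1.5 reuse the main fit, so no direction could turn there. Against a fold of 1.5 (glmTreat) 3159 genes were higher and 2808 lower, with 0 members higher and 2 lower and 3 Hippo genes higher and 12 lower. WWTR1 (0.55), TEAD2 (-0.47), ANKRD1 (-0.55) and AMOTL2 (0.58), whose fitted changes are within 1.5-fold, lost their calls there by that test's construction. TEAD3 (-0.76), at 1.69-fold beyond that limit, also missed its threshold (adjusted p = 0.0718). ANKRD1 also lost its call with DESeq2 (-0.54), recovered lengths (-0.41) and an adjusted p of 0.01 (-0.55), and ranged from -0.66 to -0.46 when 1 library was left out; the cause was not tested. TEAD1, not called, had 0.061 under upper-quartile scaling, 0.0032 on log2(FPKM + 0.1), 0.0029 on log2(FPKM + 1), and -0.098 to 0.0029 when 1 library was left out. With control lengths in both groups the TEAD1 share differed by 11.4 points and the TEAD4 share by -9.72 points. The shorter motif was in 4 member promoters. Same-numbered libraries showed no shared deviation (r = 0.018, -0.0248 and -0.00775), which cannot decide whether they were handled as pairs. With a replicate block YAP1 had -1.08, and 2 members rose and 5 fell as without it. ANKRD1 had 33 to 65 counts a library, the fewest of the members; the part of depth in its lost calls was not tested. WWC1 turned from -0.098 in counts to 0.38 with recovered lengths, 0.41 on log2(FPKM + 0.1) and 0.4 on log2(FPKM + 1).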

Other observations

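Other genes of the Hippo and target lists, named after their values were seen, also differed between the groups (all adjusted p from edgeR's quasi-likelihood test on counts). Of the 14-3-3 genes, whose proteins hold phosphorylated YAP in the cytoplasm, YWHAB fell from 697 ± 28.7 to 390 ± 2.29 CPM (adjusted p = 2.65e-19), and YWHAQ rose from 401 ± 14.3 to 479 ± 7.91 CPM (adjusted p = 8.1e-07). The kinase gene TAOK3, which acts above the MST kinases, rose from 21.7 ± 1.42 to 38.3 ± 2.35 CPM (adjusted p = 2.53e-12), while MAP4K4, a kinase that can act in their place, fell from 222 ± 7.13 to 159 ± 1.62 CPM (adjusted p = 3.98e-12). STRN3, a subunit of the phosphatase complex that opposes the MST kinases, fell by 0.31 ± 0.0619 on the log2 scale.

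CRB3, an apical polarity protein, rose from 0.883 ± 0.266 to 5.85 ± 1.23 CPM (adjusted p = 1.51e-12), while PATJ, a scaffold of the same Crumbs complex, fell from 44.6 ± 0.443 to 37.5 ± 1.97 CPM (adjusted p = 0.00043). SCRIB, of another polarity complex, rose by a log2 fold change of 0.33. LLGL1 fell from 90.5 ± 9.95 to 43.4 ± 1.11 CPM (adjusted p = 4.09e-15). The atypical cadherin genes FAT4 and DCHS1 had log2 fold changes of -0.65 ± 0.0833 and -1.31 ± 0.318, both called lower, and -0.35 and -0.12 on log2(FPKM + 1).

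Among the further targets, the phosphatase gene PTPN14, whose product binds YAP, fell from 179 ± 22.3 to 59.3 ± 2.64 CPM (adjusted p = 9.68e-10). F3, which encodes tissue factor, fell by 0.94 ± 0.2 on the log2 scale, or had -0.5 on log2(FPKM + 1). The RNA-binding protein gene RBMS3 changed by -3.72 on the log2 scale in counts. With its recovered lengths of 9441 bases in control and 2978 in knockout tables as offset it was -2.07, on log2(FPKM + 0.1) -1.55, and on log2(FPKM + 1) -0.48, called in each. TGFB2 had 42.5 ± 1.03 and 44.4 ± 0.639 CPM and passed under upper-quartile scaling (log2 fold change 0.15, adjusted p = 0.024; 0.024 to 1 over all settings).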
